A study of Mus musculus with 2 samples.

Results

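The clustered histone genes are the replication-dependent histone genes that lie in 4 groups in the mouse genome, and their symbols begin with Hist1h, Hist2h, Hist3h or Hist4h. All genes with such a symbol were taken, which gave 67 of the 32285 genes in the count matrices. They comprised 6 genes for the linker histone H1, 18 for H2A, 18 for H2B, 12 for H3 and 13 for H4. On GRCm38, 54 of them (Hist1) lay on chromosome 13 between 21715763 and 23934851, 10 (Hist2) on chromosome 3 between 96219865 and 96270132, 2 (Hist3) on chromosome 11 between 58948920 and 58956830, and 1 (Hist4h4) on chromosome 6 between 136801553 and 136804415. Expression was read in CD8+ T cells from transplanted B16 F0 melanomas of C57BL/6J mice. The study compared 1 library from lean mice fed normal chow (NC) with 1 library from obese mice fed a western diet (WD). The mice were male and 16 weeks old, had been on their diet for 12 weeks, and carried tumors harvested on day 14. How many mice went into a library is not given in the sources used here. With 1 library per diet nothing was tested, and a difference between the diets cannot be told apart from any other difference between these 2 libraries. Intervals given with a value are exact 95% intervals for counting error only, and they do not hold the spread between cells, mice or libraries.

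Core histones H2A, H2B, H3 and H4 form the octamer around which DNA is wrapped, and H1 binds the DNA between octamers. A cell that copies its genome has to double its histones, so the clustered genes are transcribed mainly in S phase. Most messenger RNAs end in a poly(A) tail, but replication-dependent histone mRNAs normally end just after a short stem-loop that is bound by SLBP, and they are degraded when DNA synthesis stops. Several of these genes can also give longer, polyadenylated transcripts, which have been described in cells that have left the cycle. The libraries were made with a 3′ kit that captures poly(A) stretches, so a UMI (unique molecular identifier, 1 captured RNA molecule) of a clustered histone gene here is a molecule that this chemistry could prime.

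The stem-loop was searched in the annotated transcripts (GENCODE release for GRCm38) and found in 46 of the 67 genes. The sites of 7 genes on which the results below turn are shown, 5′ to 3′ on the strand of the gene, with the stem-loop in capitals and up to 5 flanking bases in lower case.
Hist1h2ae, chr13:23570663-23570688, minus strand: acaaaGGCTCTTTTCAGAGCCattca
Hist1h1e, chr13:23621777-23621802, minus strand: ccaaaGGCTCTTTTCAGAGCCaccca
Hist1h1c, chr13:23739507-23739532, plus strand: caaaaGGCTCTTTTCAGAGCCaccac
Hist1h2ap, chr13:21833026-21833049, minus strand: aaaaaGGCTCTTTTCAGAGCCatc
Hist1h3e, chr13:23561898-23561923, minus strand: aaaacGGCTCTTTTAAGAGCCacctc
Hist1h4d, chr13:23581945-23581970, plus strand: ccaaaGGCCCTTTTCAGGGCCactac
Hist4h4, chr6:136803993-136804018, minus strand: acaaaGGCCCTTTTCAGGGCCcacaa
All 7 lie in the annotated 3′ untranslated region. The first form, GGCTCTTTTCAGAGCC, was present in 26 genes of the H1, H2A, H2B and H3 families. The form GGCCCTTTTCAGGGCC was present in 7 genes, all of them H4, and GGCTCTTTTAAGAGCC in 6 genes. The other 7 stem-loops had 5 further forms. No stem-loop was in the annotated transcripts of 21 genes, among them Hist1h1b and Hist1h2an. The annotated transcripts of Hist1h1b and Hist1h2an end 3 bases after the coding part, so a stem-loop beyond that end could not be found. That of Hist1h2bc, also among the 21, goes on for 745 bases. The 21 genes are thus a mixed group, and a missing annotated stem-loop does not show that the RNA lacks one.

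What followed the stem-loop differed between genes. In Hist1h2ap the annotated transcript stopped 3 bases after it. In Hist1h1c the transcript went on for 840 bases and in Hist4h4 for 2445 bases, to regions that hold the polyadenylation signal AATAAA (capitals), shown with up to 10 flanking bases on each side.
Hist1h1c, chr13:23740332-23740357, plus strand: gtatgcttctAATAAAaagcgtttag
Hist3h2a, chr11:58956787-58956812, plus strand: gtatatgcccAATAAAataagagtac
Hist4h4, chr6:136801553-136801571, minus strand: gaggagatgaAATAAAtac
In all, 23 genes had an annotated transcript that went on for 100 bases or more after the stem-loop, and they took 54.0% of all clustered histone UMIs. Another 23 genes, whose transcripts ended sooner, took 22.5%, and the 21 genes without an annotated stem-loop took 23.5%. The AATAAA signal was found at any distance after the stem-loop in 14 genes. In Hist1h1d the last one lay 197 bases and in Hist1h2be 691 bases before the annotated end. Capture was thus not limited to genes with an annotated extension, and the number of bases after the stem-loop was close to unrelated to the UMIs of a gene (Spearman's rho 0.098 over 46 genes, which share libraries and partly sequence). For the most A in any 20 bases of the transcript, rho was 0.30 over 67 genes. The 17 genes with a run of 6 or more A took 58.7% of the UMIs. Where in a transcript priming took place was not tested.

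At least 1 UMI was found for 64 of the 67 genes in each library. In the 2456 lean and 2289 obese cells kept, with 27815785 and 28705830 UMIs in all, they had 80511 and 69185 UMIs. The genes at 0 in both libraries were Hist1h2aa and Hist1h2ba, whose products are known from testis, and Hist1h2bq. A count of 0 allows up to 3 UMIs per library by counting error alone. For Hist1h2bq this limit does not bound expression, because 100% of the 90-base windows of its transcript also occur in another gene. A read from such a window has no unique origin, so the 0 of Hist1h2bq does not show that the gene was silent. The testis linker histone gene Hist1h1t had 1 UMI in the lean and 5 in the obese library. Hist2h2aa2, also with 100% of its windows shared, had 1 UMI in each. Of all genes with a UMI, 61 had 20 or more over both libraries.

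**Figure D1:**
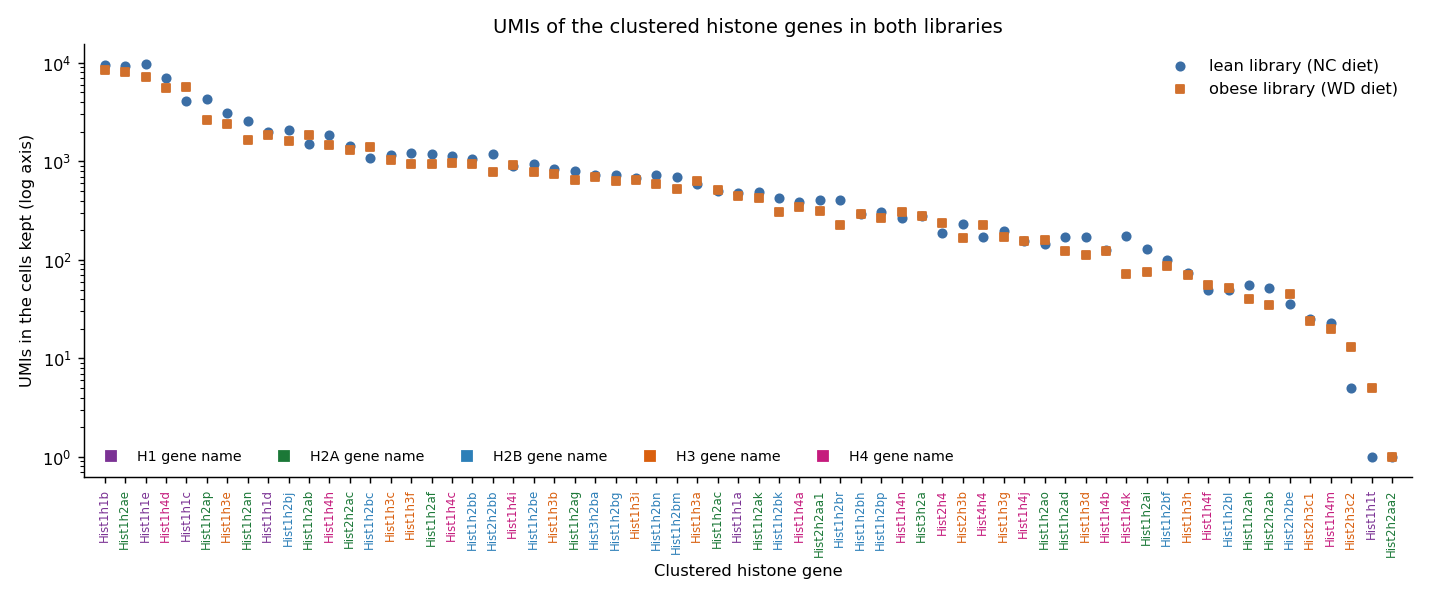
UMIs of the 64 detected clustered histone genes (vertical axis, log scale) in the cells kept from the lean (circles) and the obese library (squares), ordered by the sum of both, with gene names coloured by histone family. Counts run from 9800 UMIs for Hist1h1e in the lean library to 1 UMI for Hist2h2aa2, and the 2 libraries follow nearly the same order.

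The counts were concentrated in few genes. Hist1h1b, which codes for a linker histone, had 9425 UMIs in the lean and 8437 in the obese library. The H2A gene Hist1h2ae had 9268 and 8113 UMIs, and the linker gene Hist1h1e had 9800 and 7146. The H4 gene Hist1h4d followed with 6943 and 5544 UMIs, and the linker gene Hist1h1c with 4115 and 5682. Hist1h1c was the only one of these 5 with more UMIs in the obese library. The next 7 were Hist1h2ap (4291 and 2617 UMIs), Hist1h3e (3066 and 2371), Hist1h2an (2584 and 1640), Hist1h1d (2005 and 1835), Hist1h2bj (2095 and 1603), Hist1h2ab (1490 and 1866) and Hist1h4h (1835 and 1465). By family, H1 genes took 32.1% of the clustered histone UMIs in the lean library and 34.0% in the obese, H2A 28.9% and 27.6%, H4 15.3% and 15.1%, H2B 13.5% and 13.3%, and H3 10.2% and 9.99%. Hist1 held 94.1% and 94.0% of the UMIs, so the small groups on the other chromosomes added little to any sum.

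Many of these genes are near copies of each other. In 27 genes, 50% or more of the 90-base windows of the transcript also occurred in another gene, and their counts, 21.7% of the total, are uncertain because a read from such a window has no unique origin. Hist1h2ap (92.4% of windows shared), Hist1h2br (99.8%) and Hist1h2an (83.9%) were heavily affected. Among the windows nearest the 3′ end, which a 3′ library mostly reads, 100% were shared for Hist1h1e and 71.3% for Hist1h3e. The limit of 50% used the whole transcript, where Hist1h1e had 26.2%, so Hist1h1e is not among the 27 genes. For Hist1h4d and Hist1h1c the shares were 0.858% and 5.71%, and for Hist1h1b no window was shared. Exons of Hist1h1e and Hist1h2be overlap on the same strand, so reads from the shared stretch cannot be assigned to either.

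To place cells in the cycle without using histone genes, cells were classed by Tyms (thymidylate synthase) and Rrm2 (a ribonucleotide reductase subunit), which supply nucleotides for DNA synthesis, and by 8 mitosis genes (Ccnb1, Ccnb2, Cdc20, Cenpf, Plk1, Hmmr, Aurka and Tpx2). S-marked cells had Tyms and Rrm2 together at 2 or more UMIs per 10000 UMIs of the cell. Resting cells had 0 UMIs of all 10 genes. There were 321 S-marked cells of 2456 in the lean library (13.1%) and 366 of 2289 in the obese library (16.0%), and 1550 (63.1%) and 1292 (56.4%) resting cells. A class of this kind is a range and not a cell type, and a resting call depends on depth, since the median cell had 7958 UMIs in the lean and 9103 in the obese library. A UMI of any of the 5 T cell markers Cd8a, Cd8b1, Cd3e, Cd3d and Trac was found in 99.5% and 99.4% of cells. Cells with a UMI of Cd8a or Cd8b1 and none of Cd4, Cd79a, Lyz2 or Pmel numbered 2306 and 2159. The 5 melanoma markers summed to 0.683 and 1.01 counts per 1000000 UMIs (CPM). The 4 myeloid markers summed to 47.2 and 31.8 CPM, with a UMI in 14.6% and 14.5% of cells, and to 63.2 and 45.3 CPM in resting cells. The 3 B cell markers summed to 3.16 and 4.22 CPM, in 2.85% and 4.11% of cells, and the 2 CD4 markers to 3.20 and 2.75 CPM. The red cell markers were at 0 in the lean library and at 320.2 CPM in the obese library (915.2 CPM in its resting cells, 0.596 in its S-marked cells). Without the obese cells that had a UMI of a red cell marker, which left 2260, the histone log2 ratio of obese over lean was −0.27 over all cells, −0.60 in S-marked and 0.0031 in resting cells, close to the values given below for all cells kept. The libraries had 2 cell barcodes in common among the cells kept.

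Clustered histone RNA was concentrated in S-marked cells. Their summed level was 8111 CPM (8045 to 8178) in the lean library and 5397 CPM (5348 to 5447) in the obese library, against 622.8 CPM (608.3 to 637.6) and 622.5 CPM (607.2 to 638.2) in resting cells. S-marked cells were thus 13.0-fold above resting cells in the lean library and 8.67-fold in the obese library, log2 ratios of 3.70 and 3.12. With cells thinned to 2000 UMIs before classing the lean log2 ratio was 3.01, and against a stricter resting class, described below, the obese one was 2.26. S-marked cells held 71.8% and 65.5% of all clustered histone UMIs with 25.6% and 29.2% of all UMIs. Most of these histone UMIs came from S-marked cells that were also high in mitosis genes, as given below. The histone genes outside the clusters, most of which are known to be made through the cycle from polyadenylated mRNA, were 1.54-fold and 1.48-fold above resting as a sum over 11 genes. The replication list of 28 genes (Mcm2, Pcna, Cdc6 and others) was 6.05-fold and 5.86-fold above, and a list of 15 mitosis genes not used for the classes was 39.0-fold and 32.1-fold above.

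**Figure D2:**
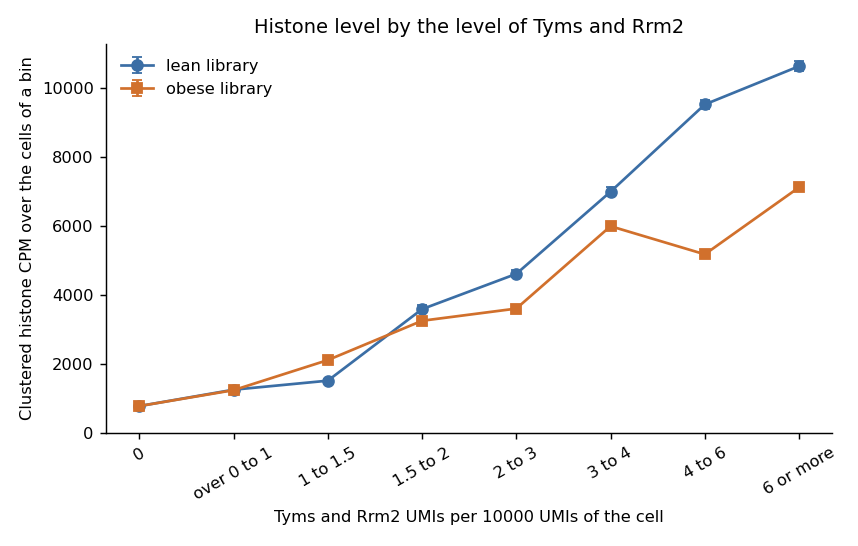
Summed level of the clustered histone genes (CPM, vertical axis) in cells binned by their Tyms and Rrm2 UMIs per 10000 UMIs (horizontal axis), for the lean (circles) and the obese library (squares), with 95% counting intervals. Both lines start at 769 CPM in cells without either RNA, and they part in the upper bins, where the lean library reaches 10623 CPM and the obese library 7111 CPM.

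Between these ends the level followed Tyms and Rrm2 in steps. In the lean library it was 769 CPM in the 1752 cells with neither, 1244 CPM in the 189 cells with up to 1 UMI per 10000, 1506 CPM from 1 to 1.5, 3579 CPM from 1.5 to 2, and 4602 CPM from 2 to 3. It reached 6985 CPM from 3 to 4, 9514 CPM from 4 to 6, and 10623 CPM in the 90 cells with 6 or more. The obese library had 769, 1231, 2102, 3243, 3596, 5984, 5169 and 7111 CPM in the same bins. Its values were above those of the lean library in the bin from 1 to 1.5 and below them in every bin from 1.5 upward. The step down from 5984 to 5169 CPM, in bins of 59 and 94 cells, was larger than the counting intervals. A cell with a UMI of either gene and a rate under 1 per 10000 must have more than 10000 UMIs. The lowest bins thus differ in depth by construction, and the part of depth in the first steps was not tested.

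Cells of the S-marked class varied widely. The middle cell of the lean class had 5423 CPM, with quartiles at 1807 and 12101 CPM, and that of the obese class had 3202 CPM, with quartiles at 1115 and 8204 CPM. Cells over 4000 CPM made up 59.2% (53.6 to 64.6) and 44.5% (39.4 to 49.8) of S-marked cells, against 1.23% and 1.32% of resting cells. The distributions of the 2 libraries overlapped over most of their range.

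**Figure D3:**
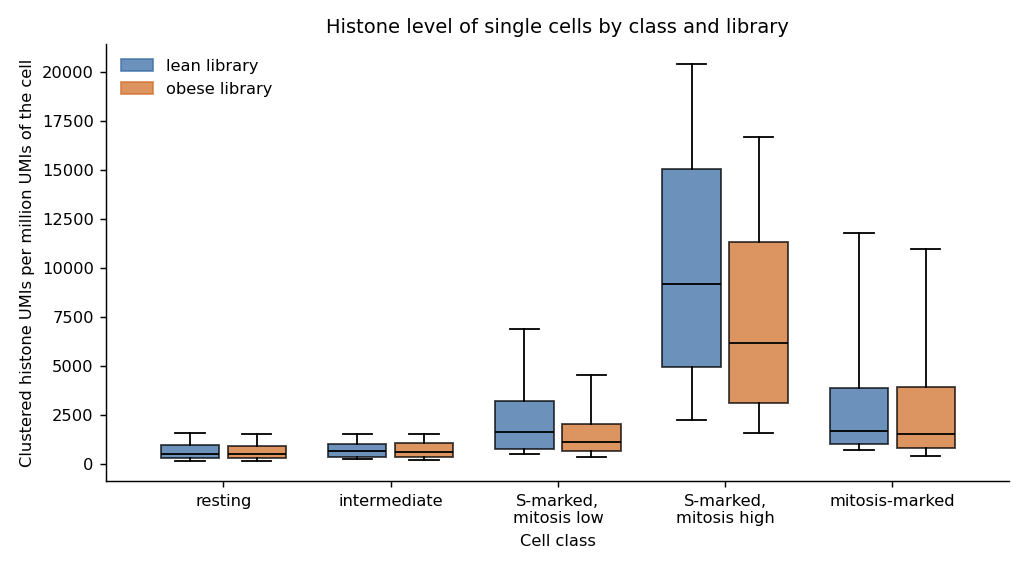
Clustered histone CPM of single cells (vertical axis) in 5 cell classes of the lean and the obese library. Boxes span the quartiles with the median as a line, and whiskers reach the 10th and 90th percentiles of cells. The S-marked, mitosis high class stands highest, with medians of 9167 in the lean and 6172 in the obese library, and the resting medians are 516 and 509.

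Within S-marked cells the level differed with the mitosis genes. S-marked cells with fewer than 2 UMIs of the 8 mitosis genes per 10000 had 3641 CPM in the lean library (118 cells) and 2275 CPM in the obese (151 cells). S-marked cells with 2 or more had 9860 CPM (203 cells) and 6901 CPM (215 cells). These held 62.7% and 56.5% of all clustered histone UMIs, against 9.06% and 8.97% in S-marked cells low in mitosis genes. Cells with the mitosis genes but without Tyms and Rrm2 at that level, called mitosis-marked, had 3894 CPM (154 cells) and 3618 CPM (190 cells). Their level was thus above that of S-marked cells low in mitosis genes in both libraries. Intermediate cells, with few UMIs of the class genes, had 852 CPM (431 cells) and 865 CPM (441 cells).

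Among the 6589 genes outside the clusters with a UMI in 10% or more of the cells of each library, ranked by the lower of the 2 correlations, those whose level followed the histone sum most closely over cells were Top2a (topoisomerase II alpha, Pearson's r 0.62 in both libraries), Mki67 (0.60 and 0.61), Pclaf (a PCNA-binding factor, 0.65 and 0.60), Ccna2 (cyclin A2, 0.60 and 0.60), Birc5 (0.61 and 0.60), Nusap1 (0.65 and 0.60), Stmn1 (0.62 and 0.58) and Spc24 (0.61 and 0.58). Rrm2 was in rank 16 (0.58 and 0.53) and Tyms in rank 44 (0.50 and 0.43), while Slbp, the stem-loop binding protein, was in rank 180 (0.24 and 0.29). These are descriptions over 2456 and 2289 cells that share their library and differ in depth.

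Gene by gene, 46 of the 59 histone genes with 20 or more UMIs in the 2 classes together in each library were at least 4-fold higher in S-marked than in resting cells in both libraries, where 3.19% of all 10723 genes so tested were. The H2A family had the largest sums, 33.6-fold in the lean and 21.1-fold in the obese library, followed by H3 (16.9-fold and 10.4-fold), H2B (13.7-fold and 8.47-fold), H1 (8.89-fold and 5.95-fold) and H4 (8.0-fold and 6.21-fold).

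At one end, Hist1h3b, coding for H3, had 100.2 CPM in S-marked cells of the lean library and 73.4 CPM in the obese, against 0.0892 and 0.20 CPM in resting cells. Those resting levels rest on 1 and 2 UMIs, so the size of the fold is poorly known. Hist1h2ab, an H2A gene, had 178 CPM in S-marked cells of both libraries and 0.535 and 1.20 CPM in resting cells, a 333-fold and 149-fold difference. Hist1h2af and Hist1h3c were similar, at 230-fold and 148-fold and at 217-fold and 138-fold. Resting cells held only 0.403% to 0.681% of the UMIs of Hist1h2ab, Hist1h2af and Hist1h3c, so the sizes of these folds are also poorly known. Hist1h1b stood at 1131 and 773 CPM in S-marked cells and at 12.8 and 21.9 CPM in resting cells (88.1-fold and 35.4-fold).

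At the other end, Hist3h2a, an H2A gene, was not higher in S-marked cells, with 11.4 and 8.70 CPM there and 12.8 and 11.4 CPM in resting cells (0.891-fold and 0.764-fold). Hist4h4, the lone H4 gene of its locus, had 7.16 and 7.63 CPM in S-marked and 5.98 and 6.99 CPM in resting cells. Hist2h2be, an H2B gene, differed 2.62-fold and 1.74-fold on 36 and 45 UMIs in all. Hist1h1c, by far the most abundant of this end, had 236 CPM in S-marked cells of each library and 111 and 147 CPM in resting cells (2.12-fold and 1.60-fold). Small differences were also found for Hist2h4 (3.28-fold and 1.88-fold), Hist1h4n (3.24-fold and 1.63-fold on 263 and 305 UMIs), Hist2h2ab (1.74-fold and 3.41-fold on 52 and 35 UMIs) and Hist3h2ba (2.99-fold and 2.24-fold). The annotated transcripts of Hist3h2a, Hist4h4, Hist1h1c, Hist2h4 and Hist3h2ba have AATAAA after the stem-loop, as shown above for 3 of them. That of Hist1h4n, an H4 gene with 81.2% of its windows shared, has the stem-loop and no AATAAA after it. Those of Hist2h2be and Hist2h2ab hold no stem-loop.

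**Figure D4:**
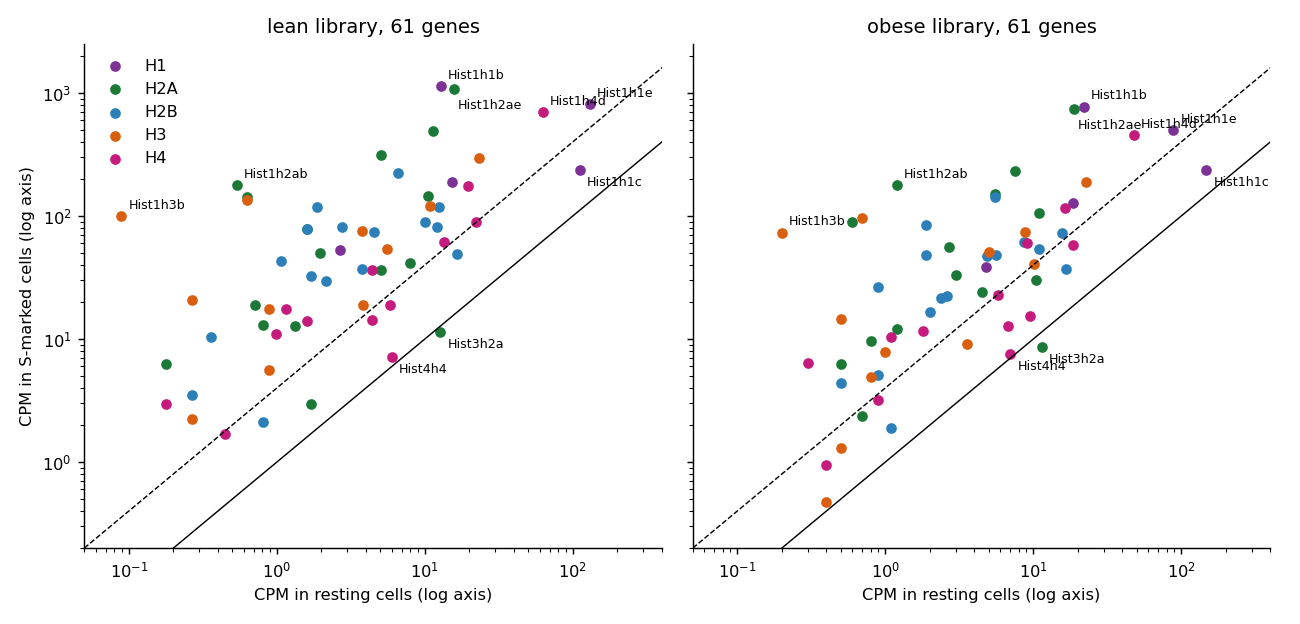
Level of each clustered histone gene in S-marked cells (CPM, vertical axis) against its level in resting cells (CPM, horizontal axis) in the lean (left) and the obese library (right), both axes on a log scale, with points coloured by family. The solid line marks equal levels and the dashed line a 4-fold higher level in S-marked cells. Hist1h1c, Hist4h4 and Hist3h2a lie at or near the solid line, and Hist1h3b and Hist1h2ab lie farthest above the dashed one.

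The genes with AATAAA after the stem-loop had a median log2 ratio of S-marked over resting of 3.06 in the lean and 1.53 in the obese library (13 genes with 20 or more UMIs). The genes with a stem-loop and no such signal had 4.04 and 3.20 (30 genes). The share of a gene's own UMIs that came from resting cells had medians of 12.6% and 20.2% in the first group and of 6.62% and 8.82% in the second. For the genes without an annotated stem-loop the median log2 ratios were 3.96 and 3.14, and the median shares 6.62% and 8.64% (18 genes). Of the genes with the highest levels in resting cells, Hist1h1c has the signal. Hist1h1e, Hist1h4d, Hist1h3e, Hist1h4c and Hist1h4h have a stem-loop and no such signal. The groups overlapped, since Hist1h2ae has the signal and was 68.4-fold and 39.4-fold higher in S-marked cells. AATAAA was counted here at any distance after the stem-loop. For 12 genes with AATAAA within 40 bases of the annotated end, with or without a stem-loop, the median log2 ratios were 2.39 and 1.28. For the other 49 genes with 20 or more UMIs they were 3.91 and 3.13. Membership of all these groups rests on the annotation and not on reads.

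Of the small groups, the 10 Hist2 genes summed to 341.6 CPM in S-marked cells of the lean library and to 220.4 CPM in the obese (8.76-fold and 5.92-fold over resting). Hist2h2ac, an H2A gene, led them with 1425 and 1311 UMIs, then Hist2h2bb with 1180 and 784, Hist2h2aa1 with 407 and 314, Hist2h3b with 232 and 168, and Hist2h4 with 188 and 237. Hist2h3c1 had 25 and 24 UMIs. The 2 Hist3 genes, Hist3h2ba (728 and 696 UMIs) and Hist3h2a (279 and 277 UMIs), summed to 2.08-fold and 1.64-fold.

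Resting cells held clustered histone RNA at a level far below that of S-marked cells but above 0. No clustered histone UMI was found in 7.35% of lean and 6.66% of obese resting cells. With each cell thinned to 2000 UMIs, which left 1440 lean and 1210 obese resting cells (110 and 82 were shallower), 67.6% and 66.4% of them still had one. The resting RNA had another makeup than that of S-marked cells. Hist1h1e was at 131 CPM in resting cells of the lean library and 88.6 CPM in the obese, and Hist1h1c at 111 and 147 CPM. Hist1h4d had 62.9 and 47.8 CPM, Hist1h3e 23.3 and 22.7, Hist1h4c 22.1 and 18.6, and Hist1h4h 19.7 and 16.5. Together H1 genes had 272.9 and 281.1 CPM in resting cells, more than any other family.

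Free RNA from lysed cells can give UMIs in cells that do not express a gene, and its part in these values was not tested. The level in resting cells was 47.1% (lean) and 62.6% (obese) of that in S-marked cells for Hist1h1c, 83.5% and 91.6% for Hist4h4, 16.0% and 17.8% for Hist1h1e, 9.03% and 10.5% for Hist1h4d, 1.14% and 2.83% for Hist1h1b, and 0.089% and 0.272% for Hist1h3b. It was 3.20% and 3.78% for Mki67 and 0.651% and 0.843% for Pclaf, cycle genes outside the clusters and not used for the classes. In thinned resting cells Hist1h1c was seen in 21.2% (19.1 to 23.4) of lean and 25.4% (22.9 to 27.9) of obese cells, and Hist1h1e in 19.9% (17.8 to 22.0) and 14.5% (12.6 to 16.7). Hist1h1b was seen in 2.01% (1.35 to 2.88) and 4.30% (3.23 to 5.60), beside 2.01% (1.35 to 2.88) and 1.90% (1.21 to 2.84) for Mki67. The other cycle genes outside the clusters were seen in 4.24% and 5.29% of these cells (Top2a), 0.278% and 0.661% (Birc5), and 0.556% and 1.07% (Pclaf), so the share of Hist1h1b was within their range.

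A stricter definition, with 0 UMIs also of the 28 replication genes and 15 mitosis genes, left 92 lean and 31 obese cells, with medians of 3796 and 2452 UMIs against 6710.5 and 7236 over all resting cells. Their clustered histone level was 772.6 CPM (685.5 to 867.7) and 1126 CPM (926.3 to 1356). This was above the 622.8 CPM (608.3 to 637.6) and 622.5 CPM (607.2 to 638.2) of all resting cells, in a class of shallower cells. Hist1h1e (157 and 172 CPM) and Hist1h1c (152 and 203 CPM) again led.

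Between the libraries, the clustered histone level over all cells was 2894 CPM (2874 to 2914) in the lean and 2410 CPM (2392 to 2428) in the obese library, a log2 ratio of −0.26 (−0.28 to −0.25). The obese library had the larger share of S-marked cells and the lower pooled histone level. The median cell was alike, at 670 CPM in the lean and 676 CPM in the obese library. Cells over 4000 CPM made up 10.1% of all cells in each library. In S-marked cells the log2 ratio was −0.59 (−0.61 to −0.57), in those with low mitosis genes −0.68 (−0.73 to −0.63), and in those with high mitosis genes −0.51 (−0.53 to −0.50). In mitosis-marked cells it was −0.11 (−0.15 to −0.07). As sums over all clustered genes, intermediate cells differed by 0.022 (−0.029 to 0.074) and resting cells by −0.00066 (−0.050 to 0.049), both within counting error. By family, H4 differed by −0.19 (−0.30 to −0.08) in resting cells. In intermediate cells H1 differed by 0.13 (0.05 to 0.21) and H3 by −0.23 (−0.40 to −0.05). The other families were within counting error in each of these classes. With each S-marked cell thinned to 2000 UMIs, the mean was 16.2 histone UMIs per cell in the lean and 11.5 in the obese library.

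All 5 families were lower in S-marked cells of the obese library, with log2 ratios of −0.64 for H2A, −0.63 for H2B, −0.59 for H3, −0.56 for H4 and −0.53 for H1. Of the 61 genes with 20 or more UMIs in the S-marked cells of both libraries together, 58 were lower in the obese library and 3 higher, and the interval lay below 0 for 44 genes and above 0 for none. Of all 10478 genes with as many UMIs, 48.1% were lower and 51.9% higher, with the interval below 0 for 10.9% and above 0 for 12.7%. Of the 58 genes with 20 or more UMIs in each library, 44 were at least 20% lower and 1 (Hist1h2bl, on few UMIs) was at least 25% higher, which is the same fold, against 10.6% and 11.4% of all 9196 genes. The median log2 ratio was −0.57 over these 58 genes and 0.0089 over all genes. Over all cells, 23 of 61 histone genes were lower and 3 higher by that fold, against 7.86% and 12.4% of 11298 genes. That split was 12 lower and 7 higher of 61 with all deposited cells, and 8 lower and 5 higher of 45 with thinned cells. Shares over all genes were not computed for these alternatives. In resting cells, 6 of 35 were lower and 12 higher by that fold, against 9.32% and 13.6% of 9856 genes. Shares in resting cells rest on few UMIs per gene.

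**Figure D5:**
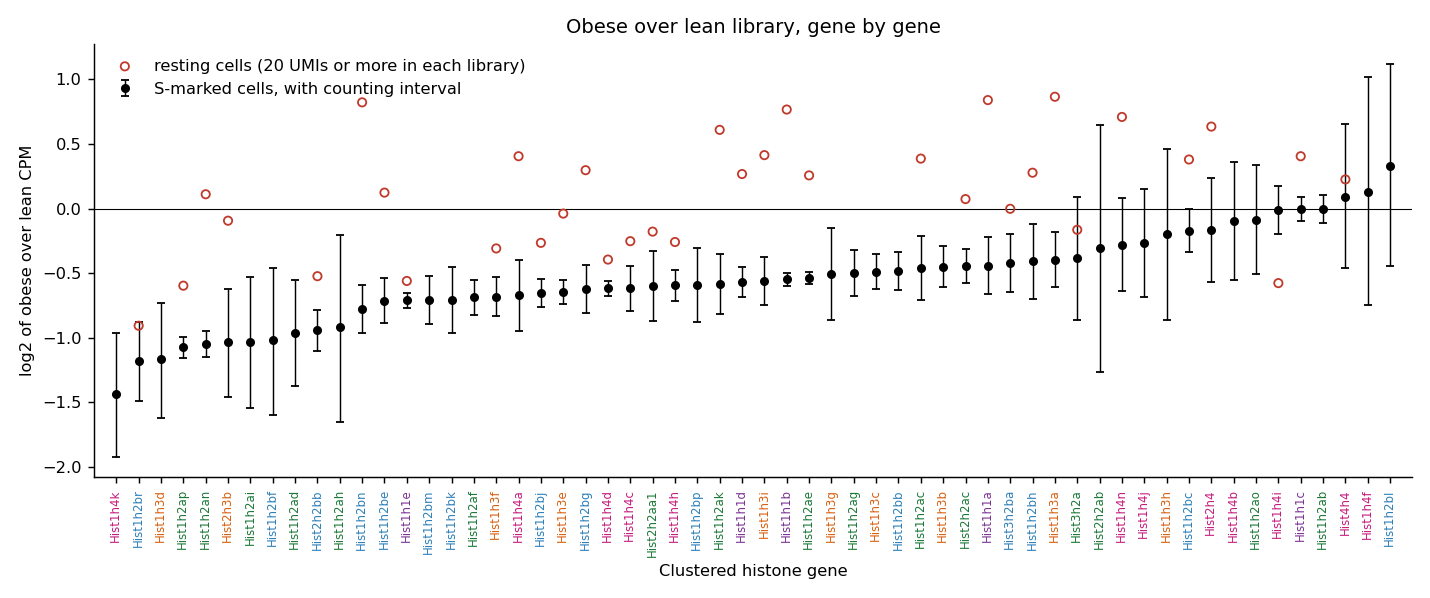
Log2 of obese over lean CPM (vertical axis) for the 58 clustered histone genes with 20 or more UMIs in S-marked cells of each library, in order of that ratio. Filled points give S-marked cells with 95% counting intervals, and open circles give resting cells for the 35 genes with 20 or more UMIs there in each library. Nearly all filled points lie below 0, at a median of −0.57, while open circles fall on both sides of 0.

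The genes did not differ by the same amount. Hist1h2ap had 489 CPM in S-marked cells of the lean and 232 CPM in those of the obese library, a log2 ratio of −1.08 (−1.16 to −0.995), and Hist1h2an had 311 and 150 CPM, a log2 ratio of −1.05 (−1.15 to −0.95). Hist1h2br had 37.3 and 16.4 CPM (−1.18, −1.49 to −0.88) and Hist1h3d 17.7 and 7.86 CPM (−1.17, −1.62 to −0.73). Over all cells these 4 had the lowest ratios of the genes with 100 or more UMIs in each library, at −0.76, −0.70, −0.91 and −0.66. Hist1h2ap, Hist1h2an and Hist1h2br are also genes with most of their windows shared with other copies.

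Of the 12 genes with the most UMIs, 8 stood near the median. In S-marked cells Hist1h1e had a log2 ratio of −0.71 (−0.77 to −0.65), Hist1h3e of −0.65 (−0.74 to −0.55), Hist1h2bj of −0.66 (−0.76 to −0.55), Hist1h4d of −0.62 (−0.68 to −0.56), Hist1h4h of −0.60 (−0.72 to −0.47), Hist1h1d of −0.57 (−0.69 to −0.45), Hist1h1b of −0.55 (−0.60 to −0.50) and Hist1h2ae of −0.54 (−0.59 to −0.49). Besides Hist1h2ap and Hist1h2an, the other two of these 12 were level between the libraries. Hist1h1c had 236 CPM in S-marked cells of both (−0.01, −0.10 to 0.09) and Hist1h2ab 178 CPM in both (0.00, −0.11 to 0.11).

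Over all cells the highest ratios of the genes with 100 or more UMIs in each library were those of Hist1h1c (0.42, 0.36 to 0.48), Hist4h4 (0.34, 0.05 to 0.64), Hist1h2bc (0.33, 0.21 to 0.44) and Hist2h4 (0.29, 0.01 to 0.57). Of these, Hist1h1c, Hist4h4 and Hist2h4 also stood among the genes with the smallest difference between S-marked and resting cells. In resting cells Hist1h1c was at 111 CPM in the lean and 147 CPM in the obese library (log2 ratio 0.41), and Hist1h1e was at 131 and 88.6 CPM (−0.56). The 2 linker genes thus differed in opposite directions, and the H1 sum in resting cells differed by 0.043. The windows of Hist1h1e nearest the 3′ end are shared with other genes, which limits its values.

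In S-marked cells 27 of the 28 replication genes were higher in the obese library, 17 with the interval above 0, against 51.9% and 12.7% of all genes, and their sum had a log2 ratio of 0.18. This was not particular to S-marked cells. The log2 ratio of the same sum was 0.24 (0.23 to 0.26) over all cells and 0.22 (0.18 to 0.27) in resting cells. Pcna, the replication clamp, had 413 CPM in the lean and 455 CPM in the obese library, Mcm5 of the replicative helicase 117 and 142 CPM, Nasp, a histone chaperone, 206 and 256 CPM, and Uhrf1 80.8 and 103 CPM. Tyms had 261 and 252 CPM and Rrm2 230 and 234 CPM, which the class itself partly fixes. In S-marked cells the 15 mitosis genes summed to a log2 ratio of −0.13. Of these genes, 13 were lower and 5 had the interval below 0, against 48.1% and 10.9% of all genes. Lower genes included Birc5 (437 and 358 CPM) and Ube2c (295 and 221 CPM), while Mki67 (298 and 309 CPM) and Top2a (674 and 659 CPM) were level. The direction was not the same in other sets of cells. Over all cells the log2 ratio of this mitosis sum was 0.18 (0.15 to 0.20), with all 15 genes higher in the obese library. In mitosis-marked cells it was 0.33 (0.28 to 0.38).

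Among the 12 genes for histone mRNA processing, 11 had 20 or more UMIs in S-marked cells. Of these, 7 were higher and 4 lower in the obese library, against 51.9% and 48.1% of all genes. The interval was above 0 for 3 and below 0 for 1, against 12.7% and 10.9% of all genes. Slbp had 165 and 189 CPM (log2 ratio 0.19, 0.08 to 0.30), Casp8ap2 62.3 and 72.7 CPM, and Npat, the coactivator of clustered histone genes, 18.4 and 14.8 CPM (−0.32, −0.68 to 0.05). The 11 histone genes outside the clusters summed to 7846 and 7783 CPM, a log2 ratio of −0.011. H3f3b (3253 and 3192 CPM) and H2afz (1887 and 1824 CPM) carried most of that sum. Of the 10 with 20 or more UMIs in S-marked cells, 4 were higher and 6 lower in the obese library. The interval was above 0 for 3 and below 0 for 6. Those named here were all lower. Cenpa, the centromeric H3, had 296 and 208 CPM (−0.51, −0.60 to −0.42). H1f0, the linker histone of cells that have stopped dividing, had 41.4 and 22.2 CPM (−0.90, −1.17 to −0.63).

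The rule used names only, so position and promoter could be described apart from it. Of the clustered genes, 24 formed 12 pairs of an H2A and an H2B gene whose starts lay 176 to 306 bases apart on opposite strands. Hist1h2ap and Hist1h2br are such a pair, 236 bases apart, and both were among the lowest in the obese library (−1.08 and −1.18 in S-marked cells). Most windows of both genes are shared with other copies, so their counts are uncertain. In another pair, Hist1h2an and Hist1h2bp stood at −1.05 and −0.59. Hist1h2ae and Hist1h2bg were at −0.54 and −0.62, and Hist1h2ac and Hist1h2bc at −0.46 and −0.17. Hist1h2bl and Hist1h2ai, on 101 and 204 UMIs, stood at 0.33 and −1.03. The pairs were looked at after the values had been seen.

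Promoter sequences from RefSeq (GRCm38.p6) matched 61 genes with 62 promoters. In the 250 bases before the start, on either strand, CCAAT was present in 82.3% of them and in 33.8% of all 32851 promoters, and TATAAA in 46.8% and 12.4%. ATTTGCAT, the octamer motif, was present in 22.6% and 1.60%, in 7 of 17 H2A and 7 of 17 H2B promoters and in none of the H1, H3 or H4 promoters. In the pairs of an H2A and an H2B gene, the starts lay 176 to 306 bases apart, so the searched stretches of a pair overlap. The same site can then be counted for both genes, and the H2A and H2B counts of any motif are not independent. AAACACA, which includes no other of these motifs, was present in 14.5% and 6.25%, and in 5 of 6 H1 promoters. The 120 bases before the start are shown for 2 H1 genes that differed most in their link to S-marked cells and for Hist1h4d, on the strand of the gene, with these motifs on either strand in capitals.
Hist1h1b, chr13:21780626-21780745, minus strand: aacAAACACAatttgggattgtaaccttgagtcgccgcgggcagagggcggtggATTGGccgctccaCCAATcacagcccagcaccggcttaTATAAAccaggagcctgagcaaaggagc
Hist1h1c, chr13:23738687-23738806, plus strand: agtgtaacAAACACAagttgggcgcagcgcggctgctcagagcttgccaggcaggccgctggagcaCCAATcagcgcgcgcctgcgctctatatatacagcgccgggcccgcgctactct
Hist1h4d, chr13:23581448-23581567, plus strand: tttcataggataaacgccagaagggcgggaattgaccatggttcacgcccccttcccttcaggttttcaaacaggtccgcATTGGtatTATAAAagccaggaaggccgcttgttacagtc
Hist1h1b and Hist1h1c, which were 88.1-fold and 2.12-fold higher in S-marked cells of the lean library, both hold AAACACA and CCAAT in this window. TATAAA was matched in Hist1h1b and Hist1h4d. A match describes the letters and says nothing of binding.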

How the data were processed

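The authors prepared 3′ single-cell RNA libraries on the 10x Chromium from CD8+ tumor-infiltrating cells that had been enriched on beads and sorted, and the submitters' processing notes name Cell Ranger 6.0.2 and mm10. The annotation release is not given in the sources used here. The deposited matrices hold UMI counts per gene and cell, not normalized, for 2697 lean and 2623 obese cells. Cells with under 7.5% mitochondrial UMIs and more than 500 and fewer than 50000 UMIs were kept. Doublets were not called. For each class, the UMIs of a gene or gene group were added up and set against the total UMIs of the same cells (CPM). Sums carry exact Poisson intervals, shares exact binomial (Clopper-Pearson) intervals, and ratios exact conditional binomial intervals, all at 95%. A gene was counted as different from 4-fold (classes), or from 25% higher or 20% lower (libraries), with 20 or more UMIs. Genes were named by rule: the 12 with the most UMIs, the 6 highest in resting cells, the 4 highest and 4 lowest ratios between libraries, the 4 smallest ratios between classes with 50 or more UMIs, the Hist2, Hist3 and Hist4 genes, and fixed lists. Histone genes, lists and limits were chosen with earlier results of these data known. Functions were tested on simulated data. All 67 genes were found in the GENCODE annotation of GRCm38, with transcripts only, so no stem-loop was looked for beyond a transcript's end. Python 3.11.15, numpy 2.4.6, scipy 1.17.1, pandas 2.3.3 and edgeR 4.0.16 (TMM factors, an alternative) were used. A planned split of resting cells is not reported here.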

Additional observations from a re-analysis of the deposited data

Results flagged for a closer look

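In 5 genes the log2 ratio of obese over lean had opposite signs in S-marked and in resting cells, with the counting interval off 0 in both classes. With 1 library per diet the difference between the classes was not tested. The share of all genes with such opposite signs was not computed, so the count is not shown to be particular to clustered histone genes. Hist1h1b was at −0.55 in S-marked and 0.77 in resting cells, Hist1h2bn at −0.78 and 0.82, Hist1h3a at −0.40 and 0.87, Hist1h1a at −0.44 and 0.84, and Hist1h2bc at −0.17 and 0.38. The resting levels of these genes were low, from 2.68 CPM for Hist1h1a in the lean library to 21.9 CPM for Hist1h1b in the obese library.

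The comparisons leave out cells of 50000 or more UMIs, and these held clustered histone RNA at 3504 CPM in the lean library (83 cells) and 3335 CPM in the obese (121 cells), above the limit a count of 0 allows. Of them, 54.2% and 80.2% would be S-marked by the same limit. Cells with 7.5% or more mitochondrial UMIs, also left out, held it at 5054 CPM (4816 to 5300) in the lean library (158 cells) and 6412 CPM (6212 to 6618) in the obese (213 cells), and 6.33% and 9.86% of them would be S-marked.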

How the results depend on the processing

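Of 95 values recomputed under alternatives, 51 stayed within the reported counting interval (for counts of genes, within 1.5 times), and 44 moved out of it. No ratio with its reported interval off 0 turned direction. The alternatives without the 10 cells richest in histone UMIs, without genes of shared windows and without cells with red cell markers were chosen after seeing the data. No paired analysis was possible because each diet has 1 library.

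In S-marked cells the log2 ratio of obese over lean, −0.59 as reported, was −0.66 with all deposited cells, −0.36 with cells thinned to 2000 UMIs before classing, −0.43 and −0.73 with class limits of 1 and 4 UMIs per 10000, −0.56 with mitochondrial and ribosomal protein genes taken out of the total, −0.53 as a mean over cells and −0.55 without genes of shared windows. Over all cells it was −0.26 as reported, −0.16 with all deposited cells, −0.12 thinned, −0.31 with TMM factors, −0.11 as a mean over cells, −0.16 without the 5% of cells with the most UMIs and −0.22 without genes of shared windows. In resting cells it was −0.00066 as reported, with the interval on both sides of 0, and 0.061 thinned, 0.079 as a mean over cells and 0.54 (0.21 to 0.86) in the stricter resting class of 92 and 31 cells.

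The log2 ratio of S-marked over resting cells was 3.70 in the lean and 3.12 in the obese library as reported. It was 3.39 and 2.73 with all deposited cells, 3.01 and 2.58 thinned, and 3.32 and 2.88 with a class limit of 1. With a limit of 4 it was 4.02 and 3.29, and with the stricter resting class 3.39 and 2.26. It was 3.54 and 2.97 without mitochondrial and ribosomal protein genes in the total, and 3.38 and 2.77 as a mean over cells. Without Hist1h1b it was 3.52 and 2.94, and without the 5% of cells with the most UMIs 3.83 and 3.24. In cells with a UMI of Cd8a or Cd8b1 and none of Cd4, Cd79a, Lyz2 or Pmel it was 3.75 and 3.16. Other markers of other lineages were not used for that choice. Without the 10 cells richest in histone UMIs it was 3.58 and 3.003, and without genes of shared windows 3.48 and 2.94. It was 3.65 in the lean library with TMM factors and 3.18 in the obese library with over 1000 UMIs and under 5% mitochondrial UMIs per cell.

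With thinned cells 29 of 43 genes passed the 4-fold limit in S-marked cells (46 of 59 as reported), and 13 of 45 differed between the libraries over all cells (26 of 61), with 8 lower and 5 higher in the obese library. With all deposited cells 12 were lower and 7 higher, against 23 and 3 as reported. No shares over all genes were computed under these alternatives. Thinning leaves fewer UMIs, and at 2000 UMIs 1 UMI of Tyms or Rrm2 already marks a cell, so the classes differ by construction. Genes with few UMIs are limited by counting error, and the lack of a second library per diet limits every comparison of lean with obese.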
